A study of Bos taurus with 8 samples.

Results

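The cytosolic ribosomal protein genes were followed in bovine skeletal muscle, as the genes whose symbol begins with RPL or RPS and a number, together with RPSA and RPLP0 to RPLP2, and without the RPS6K kinases and RPS19BP genes. The rule reads gene symbols only, but it was chosen with earlier results of these data known. Of 6693 named genes with a kept probe 58 met the rule, 31 of the large and 27 of the small subunit. A probe was kept when it was above background in at least 4 of 16 readings, a reading being 1 dye channel of 1 array, and 17061 probes were. Symbols were taken from RefSeq (ARS-UCD2.0), whose table lists 84 coding genes that meet the same rule, and 26 of them were not matched to a probe. Muscle was the semitendinosus of bulls aged 15 months, 4 each of the lean Limousin and of Hereford and Holstein-Friesian, breeds of well-marbled beef. No treatment is named in the labels, and the groups differ in breed. Each of 8 arrays held 1 marbled bull in one dye and 1 Limousin bull in the other, Hereford always in Cy5 (slide 1) and Holstein-Friesian always in Cy3 (slide 2). Each of the 4 Limousin bulls was used on both slides, so the comparisons share their control animals, and breed, dye and slide cannot be told apart within either comparison.

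A cytosolic ribosome is built from a small subunit, which decodes the messenger RNA, and a large subunit, which joins amino acids and feeds the growing chain through an exit tunnel. The proteins are needed in nearly equal numbers, and their messenger RNAs begin with a terminal oligopyrimidine (TOP) tract through which mTOR signalling controls their translation as a group. In muscle, the number of ribosomes limits how much protein a fibre can make, and growth of muscle goes along with ribosome production. Many ribosomal protein genes also have close copies elsewhere in the genome, so a probe can read more than 1 transcript.

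All 58 genes were above background in all 16 readings. They gave some of the brightest spots on the array, with a median brightness of 15.3 (mean log2 of both channels) against 7.86 for all kept probes, and 56 of the 58 lay above the upper quartile of all kept probes. The median net signal of the 58 was 57954 to 75383 intensity units in Hereford and 15371 to 29342 in Holstein-Friesian. In Limousin it was 26758 to 39344 in Cy3 beside Hereford and 49709 to 58606 in Cy5 beside Holstein-Friesian. The gap between the channels thus followed the dye on both slides, and the ratios below were taken after a loess fit that removes the trend of ratio with brightness on each array. The RPS27 probe matched a non-coding record of that gene.

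After loess, the ribosomal protein genes were on balance higher in both marbled breeds than in Limousin, while median centring turned the direction on Holstein-Friesian arrays 2, 3 and 4 and kept it on array 1. On the 4 Holstein-Friesian arrays the median log2 ratio of breed over Limousin of the 58 genes was 0.20, 0.29, 0.43 and 0.07. On the 4 Hereford arrays, paired with Limousin bulls in the same order, it was 0.03, 0.13, 0.23 and 0.04. After loess array 3 had the highest median in both breeds and array 4 was low in both, and the arrays of the same number share a Limousin bull. After median centring array 3 had the highest median in Hereford (0.88) and the lowest in Holstein-Friesian (-0.91). The loess medians of all kept probes lay between -0.02 and 0.01 on these arrays.

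**Figure D1:**
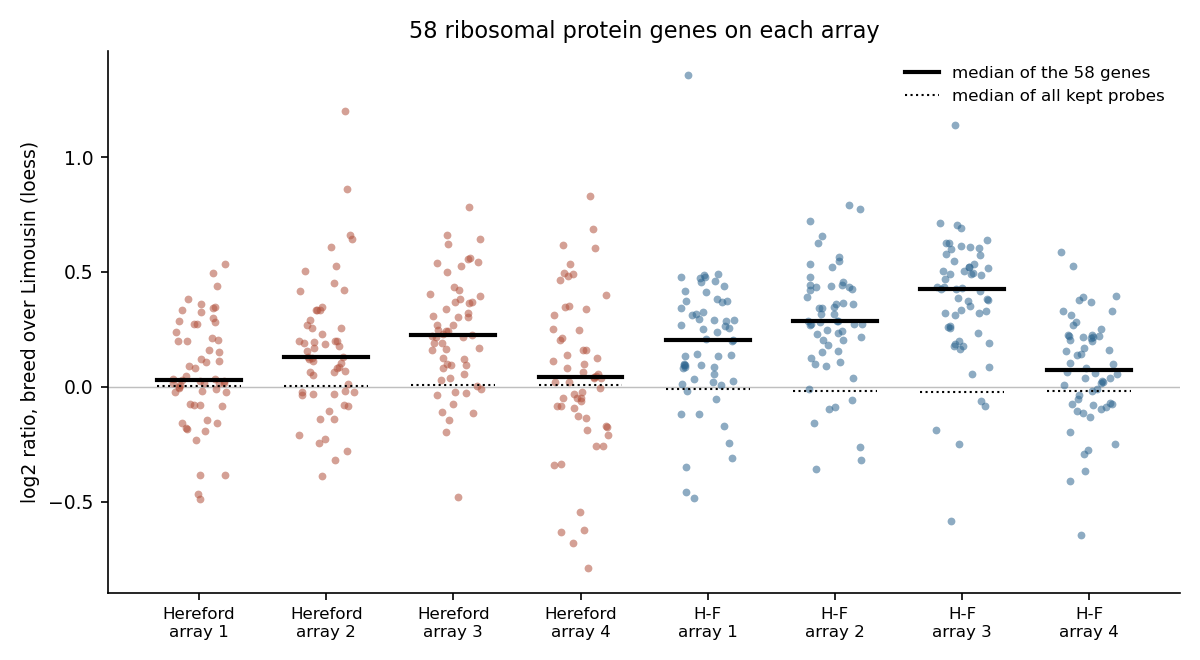
Log2 ratio of breed over Limousin after loess for the 58 ribosomal protein genes, 1 point a gene, on the 4 Hereford and the 4 Holstein-Friesian (H-F) arrays, with the median of the 58 as a solid bar and the median of the 17061 kept probes as a dotted line. The solid bar lies above the dotted line on all 8 arrays, at 0.03 to 0.23 for Hereford and 0.07 to 0.43 for Holstein-Friesian; after median centring the Holstein-Friesian median over the arrays was -0.44.

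The sign of the family's ratio in Holstein-Friesian changed with the scaling on 3 of 4 arrays. After median centring the median of the 58 genes was 0.37 on array 1, with 53 genes above 0, and -0.59, -0.91 and -0.64 on arrays 2, 3 and 4. With median centring in place of loess, the median of the 58 gene means was -0.44, with 57 genes below 0, where loess gave 0.25 with 53 genes above 0 (91.4%, against 46.1% of kept probes). Hereford kept its direction, at 0.61 with 58 of 58 above 0 after centring and 0.15 with 43 above 0 after loess (74.1%, against 52% of kept probes). Centring itself left the median of all kept probes at -0.20 in Holstein-Friesian and 0.10 in Hereford. The centred ratios also followed brightness: in the brightest of 20 equal bins the median of all kept probes was -0.68 in Holstein-Friesian and 0.41 in Hereford. In both breeds the median ribosomal protein gene lay above the median of the brightest bin, after centring as after loess, where the bin stood at -0.01 and 0.01. That bin had a mean brightness of 14.1, below the 15.3 of the median ribosomal protein gene. Among the 143 kept probes at least as bright as the median ribosomal protein gene, 114 were other probes. Their median after loess was -0.13, -0.06, -0.23 and -0.11 on the Holstein-Friesian arrays, below that of the ribosomal protein genes on each. On the Hereford arrays it was 0.21, 0.08, 0.07 and 0.23, above that of the ribosomal protein genes on arrays 1 and 4 and below it on arrays 2 and 3. After centring the 114 probes had Hereford medians of 0.65, 0.64, 0.75 and 0.68. The ribosomal protein genes had 0.36, 0.63, 0.88 and 0.46 there, lower on arrays 1, 2 and 4. On the Holstein-Friesian arrays the centred medians of the 114 were 0.08, -1.02, -1.67 and -0.85, below the ribosomal protein genes on each.

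**Figure D2:**
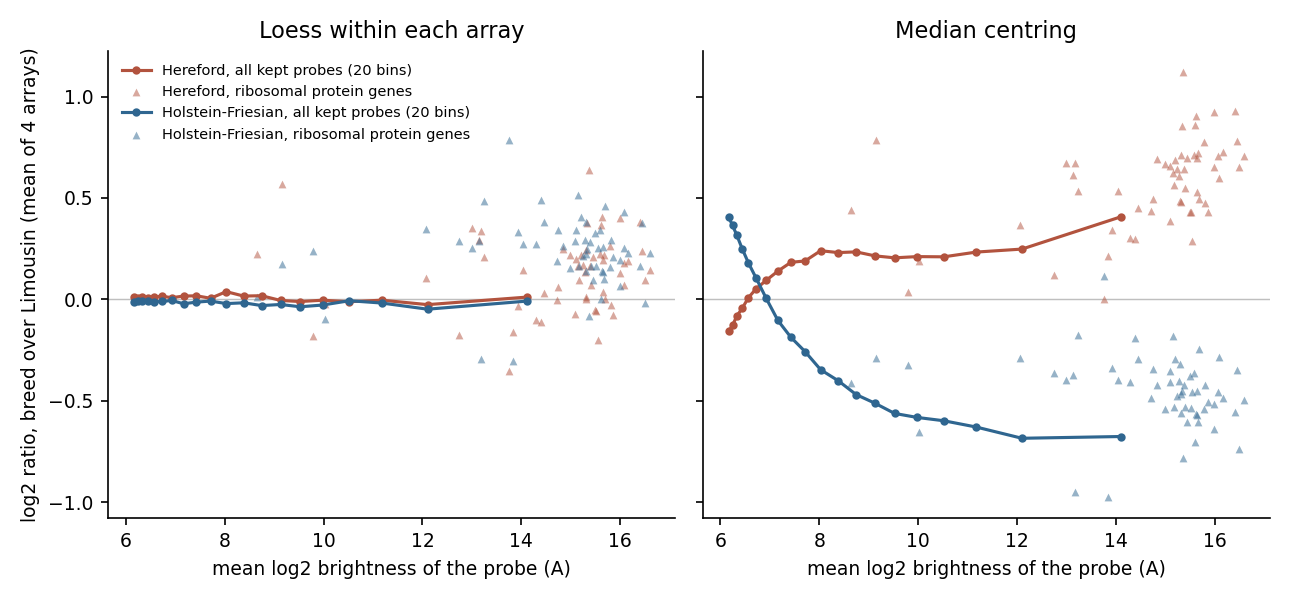
Mean log2 ratio of breed over Limousin (4 arrays) against mean log2 brightness of the probe, after loess at left and after median centring at right; joined points are medians of the kept probes in 20 bins of brightness and triangles are the 58 ribosomal protein genes. The triangles lie at the bright end, where the centred bins reach 0.41 in Hereford and -0.68 in Holstein-Friesian and the loess bins stay near 0.

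In Holstein-Friesian muscle 10 of the 58 genes passed the test after loess, each of them higher than in Limousin, by 0.27 to 0.51 on the log2 scale; after median centring the 10 lay at -0.41 to -0.18 and none of them passed. A gene was called when limma's Benjamini-Hochberg adjusted p over all kept probes was under 0.05. The 10 make 17.2% of the members, where 6.45% of all kept probes were called and 3% were called higher. At an unadjusted p under 0.05 there were 30 of the 58 (51.7%, against 23.5% of kept probes). By limma's adjusted p 0 ribosomal protein genes were called lower, where 3.45% of kept probes were. The ratio was above 0 on all 4 arrays in 29 genes, 50% of the members against 15.7% of kept probes. In these bulk samples fewer cells of a type and less RNA per cell cannot be told apart.

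Of the large subunit, 5 genes rose. RPL23A, which stands at the mouth of the exit tunnel where targeting factors dock, measured 0.47, 0.43, 0.52 and 0.52 on the 4 Holstein-Friesian arrays. These values lay close together and gave a mean of 0.49 ± 0.04 (SD, n = 4; limma adjusted p = 0.0078), or 1.40-fold. On the Hereford arrays RPL23A measured 0.03, -0.03, -0.20 and -0.26, so the breeds did not overlap.

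RPL17, whose protein lines the exit tunnel, measured 0.37, 0.77, 0.60 and 0.31 in Holstein-Friesian, a mean of 0.51 ± 0.21 (SD, n = 4; limma adjusted p = 0.019). Hereford gave 0.08, 0.18, 0.37 and 0.02 for RPL17, so its ratio was above 0 on all 8 arrays, with array 3 of Hereford inside the Holstein-Friesian range. RPL3, a protein that reaches towards the peptidyl transferase centre, measured 0.32, 0.44, 0.42 and 0.22 in Holstein-Friesian, a mean of 0.35 ± 0.10 (SD, n = 4; limma adjusted p = 0.047). RPL21, another large-subunit protein, had 0.27, 0.43, 0.69 and 0.33 and a mean of 0.43 ± 0.19 (SD, n = 4; limma adjusted p = 0.030). RPL10A, the protein of the L1 stalk, through which spent transfer RNA leaves, had the smallest called ratio, with 0.20, 0.29, 0.24 and 0.37 and a mean of 0.27 ± 0.07 (SD, n = 4; limma adjusted p = 0.038).

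Of the small subunit, 5 genes rose, of which RPS12, RPS19 and RPS20 belong to its head, the part that swivels during translocation. RPS20 measured 0.25, 0.55, 0.71 and 0.33 in Holstein-Friesian, a mean of 0.46 ± 0.21 (SD, n = 4; limma adjusted p = 0.024). RPS19, known for its mutations in Diamond-Blackfan anaemia, measured 0.46, 0.28, 0.38 and 0.22, a mean of 0.33 ± 0.10 (SD, n = 4; limma adjusted p = 0.039). RPS12 was the most uneven of the 3, at 0.08, 0.39, 0.64 and 0.39, a mean of 0.38 ± 0.23 (SD, n = 4; limma adjusted p = 0.045). RPS12 was also 1 of 2 members, with RPS29, that differed between dyes when the same Limousin bulls were read in Cy5 and in Cy3, by 0.25 in Cy5 over Cy3 (limma adjusted p = 0.043), where 4.4% of all kept probes were called. RPS15A, in the body of the subunit, measured 0.37, 0.46, 0.32 and 0.22, a mean of 0.34 ± 0.10 (SD, n = 4; limma adjusted p = 0.026). RPS4Y1 is a copy of RPS4X that is Y-linked in humans, while the table places the bovine gene of that symbol on an autosome. Its ratios were 0.34, 0.62, 0.38 and 0.59 in Holstein-Friesian, a mean of 0.48 ± 0.14 (SD, n = 4; limma adjusted p = 0.023), and 0.03, 0.05, 0.27 and 0.48 in Hereford.

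After loess RPL13, a large-subunit protein, was the 1 member below 0 on all 4 Holstein-Friesian arrays, as 20.7% of kept probes were, at -0.17, -0.32, -0.09 and -0.65, a mean of -0.31 ± 0.25 (SD, n = 4; limma adjusted p = 0.18). After median centring RPL13 was called lower there, at -0.97 (limma adjusted p = 0.012). Its Hereford ratios were 0.02, -0.21, 0.10 and -0.54, with array 4 the lowest in both breeds. RPS6, the small-subunit protein that S6 kinases phosphorylate, measured 0.44, 0.32, 0.61 and 0.25 in Holstein-Friesian and did not pass (limma adjusted p = 0.063).

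The 10 calls changed with the arrays that were kept and with the reading, and the reason was not tested. Leaving out both arrays of 1 Limousin bull gave 6 calls without bull 1 and 0 calls without bull 2, 3 or 4. The shares of kept probes called in these fits were not counted. Reading both breeds in the same dye across slides gave 6 calls, each higher, where 5.96% of kept probes were called and 2.98% called higher. Of these 6, RPL17, RPS12, RPS19 and RPS20 were among the 10, and the median over the 58 genes was then 0.21.

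**Figure D3:**
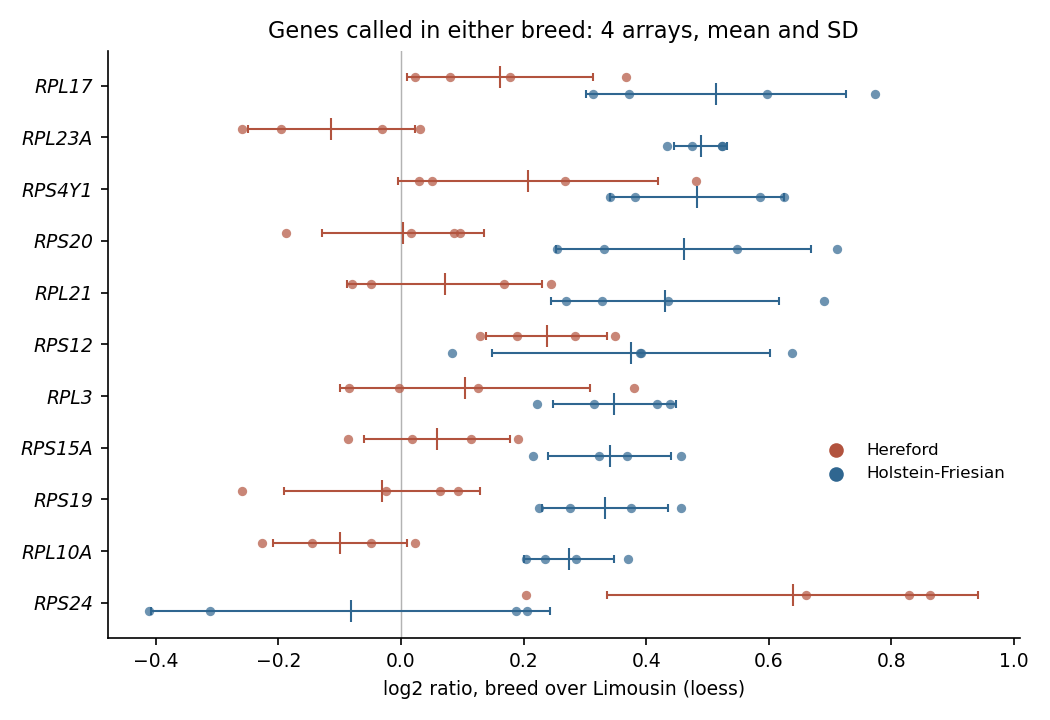
Log2 ratio of breed over Limousin after loess on each of 4 arrays (points), with mean (tick) and SD (bar), for the 11 genes called in either breed. In 10 of them the Holstein-Friesian mean lies at 0.27 to 0.51, whereas in RPS24 the Hereford mean is 0.64 and the Holstein-Friesian mean -0.08; after median centring the Holstein-Friesian means of those 10 were -0.41 to -0.18.

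In Hereford muscle 1 of the 58 genes passed, RPS24, where 7.14% of all kept probes were called and 3.39% were called higher. By limma's adjusted p 0 members were called lower, where 3.75% of kept probes were, and 18 members had an unadjusted p under 0.05 (31%, against 24.2% of kept probes). RPS24, a small-subunit protein also mutated in Diamond-Blackfan anaemia, measured 0.20, 0.86, 0.66 and 0.83, a mean of 0.64 ± 0.30 (SD, n = 4; limma adjusted p = 0.037), or 1.56-fold. In Holstein-Friesian it measured -0.31, 0.21, 0.19 and -0.41, so the lowest Hereford value met the highest Holstein-Friesian one. In the same dye across slides the Hereford ratio of RPS24 was 0.42 (limma adjusted p = 0.098; 0.028 to 0.16 over the alternatives), and it was not called there; 0 members were, where 4% of kept probes were called and 1.91% called higher, and 17 had an unadjusted p under 0.05. The call was also lost without bull 2, 3 or 4, at ratios of 0.56 to 0.63, and with only the Hereford arrays in the fit.

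The next highest genes of Hereford came from both subunits and did not pass. RPL37A measured 0.34, 1.20, 0.42 and 0.31, a mean of 0.57 ± 0.42 (SD, n = 4; limma adjusted p = 0.080), with array 2 far above the other three. RPL37 measured 0.05, 0.66, 0.32 and 0.60, a mean of 0.41 ± 0.28 (SD, n = 4; limma adjusted p = 0.093). RPL31 measured 0.29, 0.61, 0.64 and 0.06, a mean of 0.40 ± 0.28 (SD, n = 4; limma adjusted p = 0.10). RPS3A, of the small subunit, had a mean of 0.38 ± 0.29 (SD, n = 4; limma adjusted p = 0.067), and its other probe gave 0.33. In the same dye across slides RPS3A gave 0.11 in Hereford and 0.43 in Holstein-Friesian, where it passed (limma adjusted p = 0.031), so its order between the breeds turned with the dye. RPL6, of the large subunit, measured 0.54, 0.10, 0.40 and 0.46 in Hereford (limma adjusted p = 0.084). RPS28 was the 1 member below 0 on all 4 Hereford arrays, as 13.9% of kept probes were, with a mean of -0.05 ± 0.05 (SD, n = 4; limma adjusted p = 0.80), and gave 0.41, -0.06, 0.57 and 0.38 in Holstein-Friesian. Over all members, 19 of 58 (32.8%) were above 0 on all 4 Hereford arrays, against 13.7% of kept probes.

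Both marbled breeds together were set against Limousin with 1 value per Limousin bull, the mean of its Hereford and Holstein-Friesian ratios, in which a dye effect common to the slides cancels. The median over the 58 genes was 0.15, 0.23, 0.33 and 0.08 for bulls 1 to 4, and 56 of 58 gene means were above 0 (96.6%, against 49.8% of kept probes), with a median of 0.19. After median centring the median was 0.07, with bull medians of 0.39, 0.02, -0.01 and -0.08. By limma's adjusted p 0 of 58 genes were called, where 0.598% of kept probes were, and 23 had an unadjusted p under 0.05 (39.7%, against 19.6% of kept probes). When the 8 arrays were fitted with the bull as a random block, RPL17 (0.34, limma adjusted p = 0.036) and RPS4Y1 (0.35, limma adjusted p = 0.036) were called. Without the block their limma adjusted p were 0.11 and 0.093. In 27 of the 58 genes (46.6%) all 4 bull means were above 0, against 13.1% of kept probes. RPL17, RPL24, RPS12, RPS3A and RPS4Y1 were above 0 on all 8 arrays, 8.62% of the members against 3.16% of kept probes. RPL24, a protein that bridges the subunits, measured 0.11 to 0.30 in Hereford and 0.06 to 0.43 in Holstein-Friesian.

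The difference between the breeds, Hereford minus Holstein-Friesian, was tested in the same fit, and a dye effect adds up in it. RPL23A was the 1 member called, with a difference of -0.60 (limma adjusted p = 0.023), where 2.71% of kept probes were called and 1.15% were called lower. At an unadjusted p under 0.05 there were 18 members (31%, against 21.1% of kept probes). After median centring the RPL23A difference was 0.49 and 43 other members were called, each higher in Hereford. The share of kept probes called under centring was not counted, and the centred ratios followed brightness. The 43 calls are therefore not read as a result about the members. After loess the median difference over the members was -0.12, and after centring it was 1.01. When the 4 Limousin bulls were compared with themselves, RPL23A read -0.27 in Cy5 against Cy3 (limma adjusted p = 0.10). Read in the same dye, RPL23A gave 0.16 in Hereford and 0.22 in Holstein-Friesian, closer than the ratios between dyes of -0.11 and 0.49.

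With the bull as a block, 9 members were called in the difference after loess. RPS24 and RPS27L were higher in Hereford, and RPL10A, RPL15, RPL23A, RPL38, RPL3L, RPS19 and RPS20 were lower. The share of kept probes called with the block was not counted. After median centring, without the block, RPS24, RPS27L, RPL38 and RPS20 were each called higher in Hereford. The arrays of the breeds did not overlap in 10 of the 58 genes, 17.2% against 14% of kept probes. Of those 10, all but RPS27L were lower in Hereford, as 5.98% of kept probes were.

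Both subunits were on balance above 0 in both breeds after loess, and after median centring both lay below 0 in Holstein-Friesian, at -0.45 (large) and -0.42 (small). The loess median over the 31 large-subunit genes was 0.15 in Hereford and 0.23 in Holstein-Friesian, and over the 27 small-subunit genes it was 0.18 and 0.26. The 12 measured proteins of the small-subunit head had a median of 0.02 in Hereford, with 8 above 0, and 0.23 in Holstein-Friesian, with 12 above 0 (0.51 and -0.47 after centring). The remaining 15 small-subunit genes had 0.21 and 0.29. The stalk, which recruits the elongation factors, was represented by its base RPLP0 and by RPLP2. RPLP0 measured -0.38, 0.27, 0.37 and 0.34 in Hereford and -0.25, 0.72, 0.52 and -0.08 in Holstein-Friesian, with the array of bull 1 lowest in both after loess. After median centring the array of bull 1 was lowest for RPLP0 in Hereford (0.10) and highest in Holstein-Friesian (0.01). RPLP2 measured -0.49, -0.25, -0.11 and 0.04 in Hereford and 0.14, 0.34, 0.49 and 0.04 in Holstein-Friesian; neither stalk gene was called. RPL5 and RPL11 bind 5S ribosomal RNA and, when unassembled, MDM2. RPL5 had means of 0.07 and 0.17 in Hereford and Holstein-Friesian and RPL11 had 0.17 and 0.28, and neither passed.

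Among the paralogues RPL3L gave the extremes of the family after loess. It replaces RPL3 in ribosomes of striated muscle and had the highest ratio of all members in Holstein-Friesian, at 1.36, 0.44, 1.14 and 0.21, a mean of 0.79 ± 0.55 (SD, n = 4; limma adjusted p = 0.055). In Hereford it had the lowest ratio of all, at -0.47, -0.32, 0.05 and -0.68, a mean of -0.35 ± 0.31 (SD, n = 4; limma adjusted p = 0.32). The difference of -1.14 did not pass without the bull block (limma adjusted p = 0.070) and passed with it (0.023). After median centring the difference was -0.11, with RPL3L at 0.12 in Holstein-Friesian and 0.00 in Hereford, none of them called. In Holstein-Friesian RPL3L was called without background subtraction, with the deposited log ratios, and among probes above background in all readings. In the same dye across slides RPL3L gave 0.56 in Holstein-Friesian (limma adjusted p = 0.15) and -0.13 in Hereford, neither called. The Limousin bulls read -0.22 for RPL3L in Cy5 against Cy3 (limma adjusted p = 0.087). Within an array, RPL3L minus RPL3 was -0.85, -0.24, -0.07 and -0.68 in Hereford and 1.04, 0.00, 0.72 and -0.01 in Holstein-Friesian. After median centring it was -0.73, -0.08, -0.01 and -0.65 in Hereford and 1.13, -0.06, 0.56 and -0.02 in Holstein-Friesian. Holstein-Friesian arrays 1 and 3 therefore carried the wide gap under both scalings, and arrays 2 and 4 showed almost none.

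RPS27L, a copy of RPS27 known as a p53 target, measured 0.49, 0.33, 0.12 and 0.40 in Hereford, a mean of 0.34 ± 0.16 (SD, n = 4; limma adjusted p = 0.098). In Holstein-Friesian it measured -0.46, -0.16, -0.58 and 0.02, a mean of -0.29 ± 0.28 (SD, n = 4; limma adjusted p = 0.14). After median centring RPS27L was called lower there, at -0.95 (limma adjusted p = 0.0082). After loess 38 members were lower in Hereford than in Holstein-Friesian and 20 were higher, RPS27L among them. After median centring 57 members, RPS27L with a difference of 1.62 among them, were higher in Hereford. RPS27 itself varied widely, at -0.39, -0.08, 0.38 and -0.63 in Hereford and -0.35, 0.79, 0.71 and -0.20 in Holstein-Friesian. RPL26L1, a near-identical copy of RPL26, had means of -0.03 in Hereford and -0.10 in Holstein-Friesian, and RPL26 had 0.37 and 0.00, none of them called after loess. After median centring RPL26L1 (-0.65) and RPL26 (-0.70) were both called lower in Holstein-Friesian. How far the probes separate such copies was not tested.

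**Figure D4:**
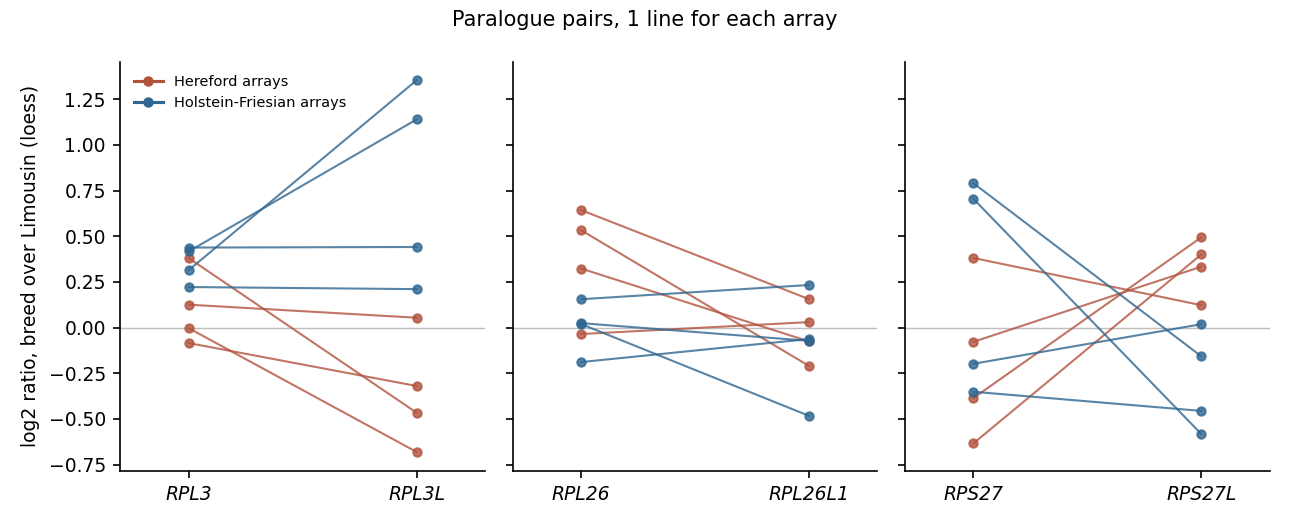
Log2 ratio of breed over Limousin after loess for 3 paralogues and their parent genes, with 1 line for each of the 4 Hereford and 4 Holstein-Friesian arrays. RPL3L lies above RPL3 by 1.04 and 0.72 on Holstein-Friesian arrays 1 and 3, and below it on all 4 Hereford arrays.

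Most genes gave 1 probe. RPL15 had 3, of which the brightest and the next gave -0.18 and -0.15 in Hereford, while the dimmest gave 1.79, 1.25, 0.27 and 0.97, a mean of 1.07 (limma adjusted p = 0.069). In Holstein-Friesian the 3 probes of RPL15 gave 0.29, 0.30 and 0.22. RPL15 is represented by its brightest probe, and its Hereford value depends on that choice. Taking the mean over probes moved the Hereford median of all members only from 0.146 to 0.154.

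Other gene groups of translation were set beside the ribosomal proteins, with loess values unless stated. The 53 measured mitochondrial ribosomal proteins, which serve the ribosomes of the mitochondrion, had a median of 0.01 in Hereford, with MRPS17 (0.40) called higher and MRPL22 (-0.36) called lower, and 0.03 in Holstein-Friesian, with MRPL52 (0.55) called higher. The 31 initiation and elongation factors had medians of -0.04 and 0.09. In Holstein-Friesian the helicase EIF4A1 (0.71) and EIF4A3 (0.32) rose and EIF5 (-0.65) and EIF3J (-0.41) fell, whereas 0 of 31 were called in Hereford by limma. The 12 other TOP messenger RNAs, which include elongation factors of the previous list, had medians of 0.07 and 0.15, with 0 called by limma in either breed. The 28 ribosome biogenesis factors had medians of -0.01 and -0.03. Among them NOC2L fell in both breeds (-0.62 and -0.55; in Hereford after loess but not after centring), NIP7 (0.46) rose and PDCD2L (-0.58) fell in Hereford, and RRS1 (0.38) rose in Holstein-Friesian. The 8 measured genes of RNA polymerase I and its factors, which make ribosomal RNA, had medians of -0.08 and 0.01, with POLR1B (-0.56) called lower in Holstein-Friesian. After median centring the groups lay close to the ribosomal proteins in Holstein-Friesian, at -0.55 for mitochondrial ribosomal proteins, -0.56 for translation factors, -0.52 for other TOP messenger RNAs and -0.43 for biogenesis factors, beside -0.44. In Hereford the centred medians of the same groups were 0.24, 0.28, 0.37 and 0.19, beside 0.61. EIF4A3 turned to -0.26 in Holstein-Friesian under centring, and EIF4A1 and MRPL52 were not called there (0.11 and 0.04). In Hereford the calls of MRPL22 (-0.12), MRPS17 (0.63), NOC2L (-0.39) and PDCD2L (-0.36) were lost under centring. In Holstein-Friesian centring also called genes of these groups that loess had not. Among those called lower were EEF2 (-0.68), NACA (-0.64), NPM1 (-0.52), EIF1 (-1.06), EIF4G2 (-1.57), MRPL18 (-0.74), DKC1 (-0.78) and POLR1D (-0.998). EIF5A2 (0.497) and TAF1A (0.38) were called higher there. Shares of kept probes called under centring were not counted, and the centred ratios followed brightness.

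FAU, a fusion that carries a small-subunit protein and falls outside the symbol rule, ranged from -1.06 to 1.19 over the Hereford arrays and did not pass in either breed.

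**Figure D5:**
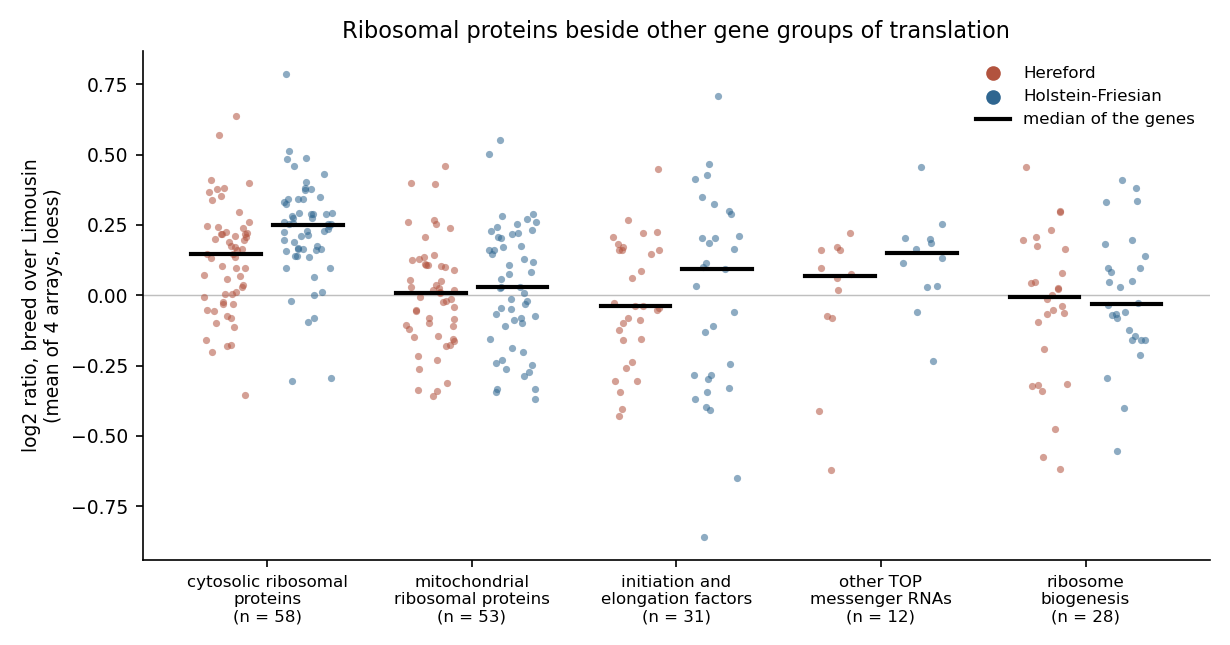
Mean log2 ratio of breed over Limousin after loess (4 arrays) for each gene of 5 groups, with the median of the group as a bar. The cytosolic ribosomal proteins have medians of 0.15 in Hereford and 0.25 in Holstein-Friesian (-0.44 after median centring), and the medians of the other 4 groups lie between -0.04 and 0.15 (-0.56 to -0.43 in Holstein-Friesian after median centring).

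Of 12 measured genes of growth control upstream of ribosome production, the transcription factor MYC rose in both breeds. It measured 0.52, 1.18, 2.16 and 1.28 in Hereford, a mean of 1.28 ± 0.67 (SD, n = 4; limma adjusted p = 0.035). In Holstein-Friesian it measured 3.29, 3.30, 2.45 and 2.10, a mean of 2.78 ± 0.61 (SD, n = 4; limma adjusted p = 0.0040). DDIT4, an inhibitor of mTOR complex 1, rose in Holstein-Friesian by 1.88 and was not called in Hereford. MDM2 (-0.62) and RRAGA (-0.68), a GTPase that brings mTOR complex 1 to the lysosome, fell in Holstein-Friesian. After median centring MYC was at 1.49 in Hereford (limma adjusted p = 0.052) and 2.37 in Holstein-Friesian (limma adjusted p = 0.0031), on the same side of 0. After loess, among the Holstein-Friesian arrays, MYC was highest on arrays 1 and 2 and the ribosomal protein median on array 3. After median centring the ribosomal protein median was highest on array 1 (0.37) and lowest on array 3 (-0.91). A link between MYC and the ribosomal protein genes was not tested.

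Markers of muscle fibres were above background in all readings, 8 of 8 measured, with a median ratio of 0.45 in Hereford and 0.21 in Holstein-Friesian (1.08 and -0.52 after median centring). MYH7 of slow fibres rose in Hereford (1.18, not called after centring) and was called higher in the marbled comparison. In Holstein-Friesian MYH7 was at 1.06 and did not pass (limma adjusted p = 0.068), and MB, myoglobin, fell (-1.02). After centring ACTA1 (-1.28), CKM (-0.79) and MYH1 (-0.70) were also called lower in Holstein-Friesian. MYH1 (1.10) was called higher in Hereford after centring. Fibroblast markers had array medians of -0.85 to -0.18 in Holstein-Friesian over 7 genes, with a median of -0.66 (-1.24 after centring). Of the 7, COL3A1 fell (-2.53) and the others did not pass after loess, with DCN (0.23) and PDGFRA (0.27) above 0. After centring DCN (-0.43) and PDGFRA (-0.27) lay below 0, and COL1A1 (-1.78), COL1A2 (-1.92), LUM (-1.24) and DPT (-0.63) were also called lower. The 8 measured lymphocyte markers, of 14 listed, had a median of 0.05 in Holstein-Friesian, with CD3E (0.52) and CD8A (0.51) called higher; after centring CD3G (0.49) was also called higher and CD4 (-0.65) and CD79A (-0.48) were called lower. The 4 measured macrophage markers had a median of 0.55 in Holstein-Friesian (0.31 after centring, where CD14, at 0.33, was called higher). In Hereford their median was -0.31 (-0.24 after centring). The Hereford medians of the fibroblast and lymphocyte markers were 0.10 and 0.06 (0.38 and 0.14 after centring). The summed net signal over the Holstein-Friesian channels was 7800 to 17756 intensity units for lymphocyte markers and 1695 to 4995 for macrophage markers. On the Limousin channels of those arrays it was 32270 to 36618 and 2488 to 5313, in the other dye. The part of these cells in the ribosomal protein ratios was not tested.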

How the data were processed

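Spots were read by Agilent Feature Extraction (10.7.3.1 in the submitters' processing notes). Per the file headers, the spot and local background values are intensity medians over pixels, and the processed signals are intensity after background subtraction and dye normalization. The deposited table gives log10 of Cy5 over Cy3 and matched the scanner's log ratio in 44407 of 44407 spots on each array. That holds for the Holstein-Friesian arrays too, although the series text calls these turned. As an alternative, the deposited ratios were converted here to log2.

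Mean signals were planned; median signals were used, since the scanner output used here has these. In limma 3.58.1 (R 4.3.3, statmod 1.5.0, jsonlite 2.0.0 and the package data.table, version 1.17.8; plots in matplotlib 3.10.9), normexp (offset 50) and loess (span 0.3, controls at weight 0) were applied, ratios were turned to breed over Limousin, and spots of a probe were averaged without outlier spots (6 to 29 an array, 0 saturated). Of 21475 probes 17061 were kept, 12961 of them above background in all 16 readings; 0 value columns were unmapped. Precision was limited by 4 arrays a breed. All 8 arrays entered 1 fit of the breed means (lmFit, eBayes; two-sided), with Benjamini-Hochberg adjustment over the kept probes; the marbled comparison used 4 bull means. The labels give the same Limousin bulls on both slides, so the numbers pair the arrays; deviations of same-numbered arrays correlated at 0.41, 0.27, 0.50 and 0.099, with a consensus correlation of 0.31. Gene symbols came through the probes' RefSeq transcripts; the array's annotation follows another build than the table, so no coordinates are given. Each gene was read from its brightest kept probe.

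On simulated data for the Holstein-Friesian comparison (17061 probes, 200 changed), 35% of changes of 0.5 and 83% of changes of 1 on the log2 scale were recovered, with 11 unchanged probes called. The members, lists and alternatives were chosen with earlier results of these data known; median centring of the other lists was added after seeing the data. Named were the called members, the 5 highest and 5 lowest with 1 direction on all arrays of each comparison, paralogues with their parents, stalk proteins, RPL5, RPL11 and RPS6, and at most 3 called genes of each other list. RPL15, RPL24, RPL38, RPS29, FAU, EIF3J, RRS1, DDIT4, COL1A1, COL1A2, LUM, DPT, DCN, PDGFRA, CD3G, CD4 and CD79A were named after their values were seen. So were EEF2, NACA, NPM1, EIF1, EIF4G2, EIF5A2, MRPL18, DKC1, POLR1D, TAF1A, ACTA1, CKM, MYH1 and CD14.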

Additional observations from a re-analysis of the deposited data

Results flagged for a closer look

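Among the 62 groups of 4 arrays tested (31 named genes in both breeds), 3 had 1 array far from the others, where chance gives about 1 in 20. RPL36A measured -0.16 on Hereford array 1 against 0.49 to 0.56 on the other Hereford arrays. RPLP0 measured -0.38 on the same array against 0.27 to 0.37. RPL37A measured 1.20 on Hereford array 2 against 0.31 to 0.42. RPL23A differed between the breeds by a test of the difference itself, by -0.60 for Hereford minus Holstein-Friesian (limma adjusted p = 0.023), with the dye reading given beside it above.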

How the results depend on the processing

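Median centring turned the Holstein-Friesian median to -0.44 and the median difference to 1.01, and moved the Hereford median to 0.61 and the marbled median to 0.072. It called 2 members in Hereford, 43 in the difference and, in Holstein-Friesian, 10 other members, each lower. Shares of kept probes called were not counted under centring. Under it the Holstein-Friesian ratios became -0.41 (RPL10A), -0.18 (RPL17), -0.29 (RPL21), -0.19 (RPL23A), -0.29 (RPL3), -0.35 (RPS12), -0.34 (RPS15A), -0.34 (RPS19), -0.25 (RPS20) and -0.18 (RPS4Y1), and the RPL23A difference became 0.49. The deposited log ratios gave medians of 0.051 for Hereford and -0.22 for the difference, with 6 calls in Holstein-Friesian and 0 by limma in Hereford and the difference (4 and 13 at an unadjusted p under 0.05). Processed signals gave 1 call in Holstein-Friesian and 0 in Hereford (7 unadjusted), and in the difference RPS27L in place of RPL23A. Among probes above background in all readings Holstein-Friesian had 7 calls, without RPL10A, RPL3, RPS12 and RPS19. The same dye across slides gave 6 and 0 (17 unadjusted), and fitting a breed's arrays alone gave 3 and 0 (17 unadjusted). Without the filter on dim probes the difference had 2 calls. With the Limousin bull as a block there were 9 calls in the difference, 2 in the marbled comparison, 8 in Holstein-Friesian (RPL3 and RPS12 were lost) and 1 in Hereford. Leaving out 1 bull gave 0 to 6 calls in Holstein-Friesian, 0 to 3 in Hereford, 0 to 1 in the difference and 0 in the marbled comparison. The medians then were 0.18 to 0.31, 0.09 to 0.16, -0.17 to -0.08 and 0.13 to 0.23. None of the called members kept its call without each bull in turn. Shares of kept probes called were counted only for the main fit and for the same dye across slides. Breed, dye and slide cannot be told apart, and the causes of these changes were not tested.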
